A study of Mus musculus with 6 samples.

Results

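The genes described here control how long the second messenger cyclic AMP lasts in a cell, where it acts and which genes it reaches. They are 10 of the 21017 genes in the deposited count table: the phosphodiesterases Pde3b, Pde4a, Pde4b, Pde4d, Pde7a, Pde7b and Pde8a, the CREB family factors Crem and Creb1, and the anchoring protein gene Akap6. All 10 were found by gene name. They were chosen by name from the cyclic AMP pathway at a time when their differences between the populations were already known, so those differences are given as a description, without p-values, and support nothing further. RNA was sequenced from lung ILC2s, innate lymphoid cells that carry no rearranged antigen receptor and secrete type 2 cytokines. IL-10-producing ILC2s were set against IL-10-negative ILC2s, with 3 libraries of each population. All libraries came from lungs of 8-week-old C57BL/6J mice of the genotype IL-10GFP, in which green fluorescence reports Il10. In both populations the mice had received IL-33 by the nose in 3 doses of 0.5 µg, and the sorted cells had spent 48 h in culture with 10 ng/mL of each of IL-4, IL-7 and IL-2 before a second sort made the populations. The labels name the cells as freshly sorted, but per the protocol they had been through this culture. Whether libraries of a population came from separate mice or cultures is not stated, so the spread between them may be technical.

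Cyclic AMP is made by adenylyl cyclases when a receptor coupled to the stimulatory G protein is engaged, and it activates protein kinase A (PKA) and the exchange factors of the EPAC family. Phosphodiesterases hydrolyse it. The PDE4, PDE7 and PDE8 families are specific for cyclic AMP, whereas PDE3 also accepts cyclic GMP. A-kinase anchoring proteins hold PKA, often together with a phosphodiesterase, at particular sites in the cell, and PKA phosphorylates CREB family factors, which bind the cyclic AMP response element in DNA. In lymphocytes a rise in cyclic AMP generally damps activation, and ILC2s carry receptors for adrenaline, prostaglandins, VIP and CGRP that raise it.

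Library totals ran from 47012941 to 69511433 estimated counts. Levels are given in CPM, the count divided by the library total and scaled with TMM factors, as mean ± SD over 3 libraries of a population. Il10, on whose reporter the cells were sorted, had 848 ± 7.77 CPM in IL-10-producing libraries and 13.5 ± 0.608 CPM in IL-10-negative ones, which checks the labels. Markers of ILC2s were abundant in all libraries, with Il1rl1, the IL-33 receptor, at 3298 ± 31.7 CPM in IL-10-producing libraries against 4068 ± 30.1 CPM, and Il2ra, a receptor chain for IL-2, at 5833 ± 47.4 CPM against 4204 ± 38.7 CPM. Of 11 ILC2 markers, 5 were higher and 5 lower in IL-10-producing libraries. All 12 T-cell markers were lower there, with a summed level of 81.2 to 84.7 CPM against 157 to 163 CPM in IL-10-negative libraries, and so were all 13 tested markers of mast cells, basophils and granulocytes, with 14.2 to 16.1 against 109 to 116 CPM. No marker of these lists was at 0 in all IL-10-producing libraries, but 7 of the T-cell markers, Cd3d, Cd4, Cd8a, Cd8b1, Trac, Cd5 and Cd6, and 10 of the 14 markers of mast cells, basophils and granulocytes were below 1 CPM there. The highest of the T-cell markers were Trbc2, with 48.2 ± 0.711 CPM in IL-10-producing against 58.3 ± 0.653 CPM in IL-10-negative libraries, and Trbc1. Trbc1 had 18.8 ± 0.545 against 21.2 ± 0.907 CPM, a call lost without IL-10-producing replicate 1 or 3 or IL-10-negative replicate 3. Trbc2 and Trbc1 made up most of the summed T-cell level in IL-10-producing libraries. The median log2 fold change of the 12 T-cell markers was -2.69. Cd8a, picked out after its values were seen, had 0.0594 ± 0.00430 CPM in IL-10-producing against 15.3 ± 0.408 CPM in IL-10-negative libraries. Mpo had 0.953 ± 0.282 against 30.5 ± 1.64 CPM and Cpa3 4.46 ± 0.549 against 22.9 ± 1.58 CPM. The part that these other cells played in the differences below was not tested, and in such bulk libraries fewer cells of a type and less RNA per cell cannot be told apart.

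The phosphodiesterase genes did not move as one. Both PDE7 genes were lower in IL-10-producing cells, Pde7b by the most, Pde3b was slightly lower and Pde4a slightly higher, while Pde4b, Pde4d and Pde8a did not pass the test. Akap6 was higher by the most, 2.42-fold, and neither Creb1 nor Crem passed. In all, 2 of the 10 genes were called higher and 3 lower at an adjusted p under 0.05 in the edgeR fit over all genes. All 10 had enough counts to be tested. Of the 16654 genes tested in that fit, 35.7% were called, 17.1% higher and 18.6% lower. All 10 genes had at least 5 CPM in the higher population, and of the 10547 genes at that level 47.2% were called. These values are printed for scale only. The same 5 genes were those whose libraries did not overlap between the populations, which was so for 45.2% of all genes tested. With library size in place of TMM scaling, 36.8% of all calls were higher, against 47.8% with TMM, and 2 of the 10 genes were again called higher and 3 lower. The median log2 fold change of the 10 genes was -0.02, and that of all genes tested was -0.004.

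**Figure D1:**
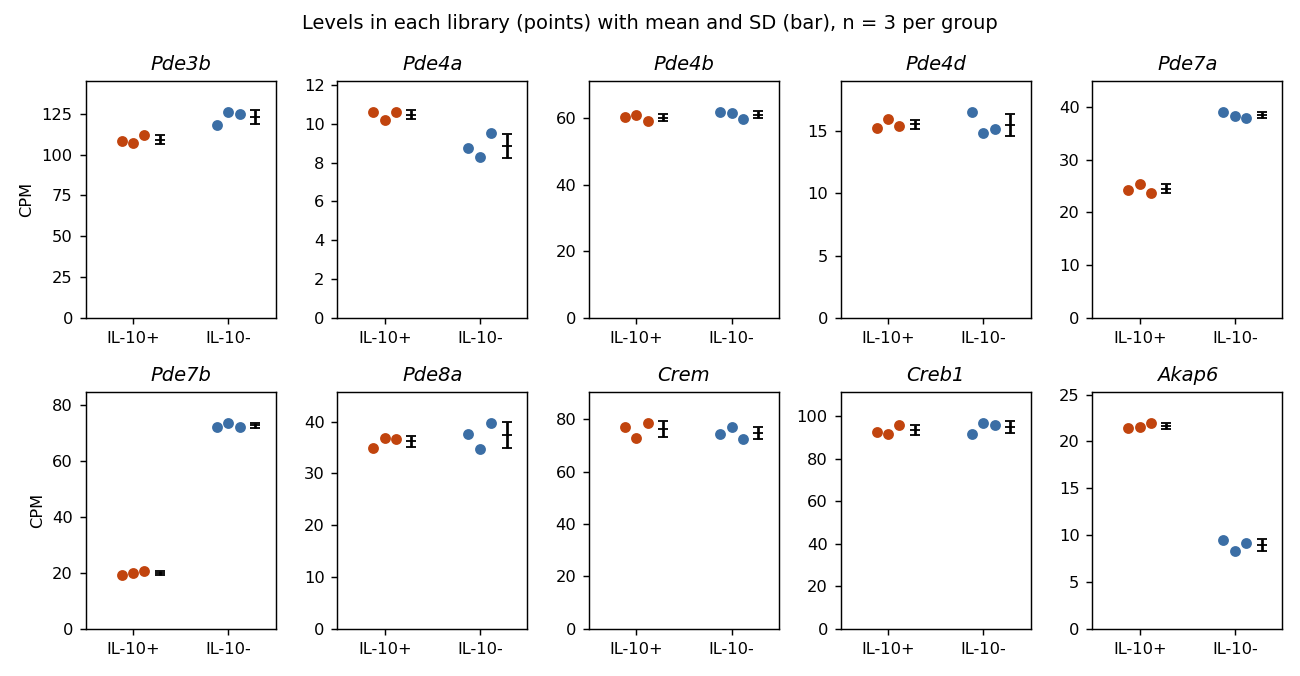
Level of each of the 10 genes in CPM (vertical axis, from 0) in the 3 IL-10-producing (IL-10+, left) and 3 IL-10-negative (IL-10-, right) libraries. Points are libraries and bars are mean and SD; Pde7b lies near 20 CPM in IL-10-producing and above 72 CPM in IL-10-negative libraries, and Akap6 above 21 against below 10 CPM.

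Pde7b encodes a high-affinity phosphodiesterase specific for cyclic AMP (ENSMUSG00000019990.15, mm10, chromosome 10, 20398004 to 20725078, minus strand). It had 19.4, 19.9 and 20.6 CPM in the IL-10-producing libraries, against 72.3, 73.7 and 72.3 CPM in the IL-10-negative libraries. The populations were far apart and the libraries within each lay close together. Its level was 3.65-fold lower in IL-10-producing cells (log2 fold change -1.87, SE 0.0384), and 1042, 1364 and 962 counts lay behind the 3 IL-10-producing values. Among the 10547 genes with at least 5 CPM in the higher population it had the 30th lowest log2 fold change.

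Pde7a, the other gene of the PDE7 family and the form best known from T lymphocytes (ENSMUSG00000069094.12, chromosome 3, 19223108 to 19311322, minus strand), moved the same way by less. It had 24.3, 25.4 and 23.7 CPM in IL-10-producing libraries, against 39.0, 38.3 and 37.9 CPM in IL-10-negative libraries, again without overlap. This was a 1.57-fold lower level (log2 fold change -0.65, SE 0.0434). Taken as a sum, the 2 PDE7 genes amounted to 44.4 ± 0.838 CPM in IL-10-producing libraries, against 111 ± 0.906 CPM in IL-10-negative libraries, or 60.0% less.

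Akap6 encodes the large muscle-type anchoring protein mAKAP, known from heart muscle, where it holds PKA and a PDE4D form at the nuclear envelope (ENSMUSG00000061603.8, chromosome 12, 52699383 to 53155599, plus strand). It had 21.4, 21.5 and 22.0 CPM in IL-10-producing libraries, against 9.46, 8.27 and 9.13 CPM in IL-10-negative libraries. Every IL-10-producing library lay above every IL-10-negative library. The level was 2.42-fold higher (log2 fold change 1.28, SE 0.0624), the 8th highest log2 fold change among the genes with at least 5 CPM. The IL-10-negative values rested on 490, 485 and 514 counts.

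Pde3b, the phosphodiesterase that insulin signalling activates in fat cells and that cyclic GMP inhibits (ENSMUSG00000030671.9, chromosome 7, 114415281 to 114539251), had 108, 107 and 112 CPM in IL-10-producing libraries, against 118, 126 and 125 CPM in IL-10-negative libraries. The populations did not overlap, but the gap between the populations was small beside its level (log2 fold change -0.17, SE 0.0284). Pde4a, of the PDE4 family that rolipram and roflumilast inhibit (ENSMUSG00000032177.17, chromosome 9, 21165714 to 21213248), had 10.6, 10.2 and 10.6 CPM in IL-10-producing libraries, against 8.74, 8.31 and 9.54 CPM in IL-10-negative libraries. The populations did not overlap, and the log2 fold change was 0.23 (SE 0.0743). Without IL-10-negative replicate 2 this was 0.19 and Pde4a was no longer called, which left 1 of the 10 genes called higher.

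The other PDE4 genes, Pde8a and the transcription factors did not pass the test, and their libraries overlapped between the populations. Pde4b, the PDE4 form needed for full inflammatory cytokine release by mouse macrophages (ENSMUSG00000028525.16, chromosome 4, 102087543 to 102607259), had 58.9 to 60.8 CPM in IL-10-producing libraries, against 59.6 to 61.7 CPM in IL-10-negative libraries (log2 fold change -0.02, SE 0.0321). Pde4d (ENSMUSG00000021699.17, chromosome 13, 108449948 to 109953461) had 15.2 to 15.9 CPM and 14.8 to 16.5 CPM in the same order (log2 fold change 0.0040, SE 0.0599). Pde8a, a phosphodiesterase that the broad inhibitor IBMX does not block (ENSMUSG00000025584.17, chromosome 7, 81213596 to 81334533), had 34.9 to 36.9 CPM in IL-10-producing libraries, against 34.8 to 39.8 CPM in IL-10-negative libraries (log2 fold change -0.05, SE 0.0461).

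Creb1, which encodes CREB (ENSMUSG00000025958.14, chromosome 1, 64532645 to 64604548), had 91.7 to 96.0 CPM in IL-10-producing libraries, against 91.6 to 97.0 CPM in IL-10-negative libraries (log2 fold change -0.02, SE 0.0289). Crem, which encodes both activators and the inducible repressor ICER from an internal promoter (ENSMUSG00000063889.16, chromosome 18, 3266048 to 3337748), had 72.9 to 78.7 CPM in IL-10-producing libraries, against 72.6 to 77.2 CPM in IL-10-negative libraries (log2 fold change 0.03, SE 0.0330). The gene totals do not separate ICER from the other Crem transcripts, of which GENCODE M21 holds 39. The SEs of these 5 genes lay between 0.0289 and 0.0599 on the log2 scale.

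**Figure D2:**
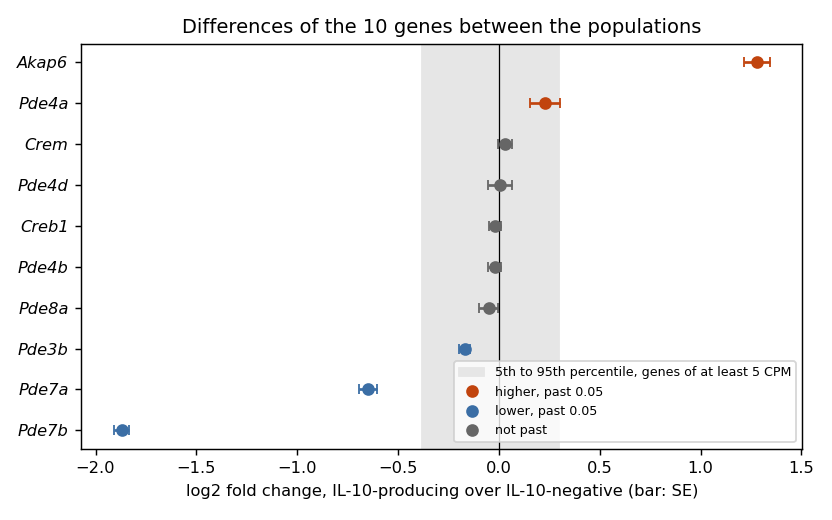
Log2 fold change, IL-10-producing over IL-10-negative, of the 10 genes (horizontal axis; bars are SE), sorted by size. The grey band spans the 5th to 95th percentile (-0.38 to 0.30) of genes with at least 5 CPM; Pde7b, Pde7a and Akap6 lie outside it and the other 7 inside.

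Per kilobase of annotated exon, which allows levels of different genes to be set side by side, Crem (12.4 to 13.4) and Pde3b (11.7 to 12.3 CPM per kb) led in IL-10-producing libraries, followed by Pde8a (8.94), Creb1 (6.80), Pde4b (5.68) and Pde7a (3.16 CPM per kb). Pde7b (1.60), Akap6 (1.46), Pde4a (1.36) and Pde4d (1.29 CPM per kb) closed the order. In IL-10-negative libraries Pde7b stood at 5.85 ± 0.0653 CPM per kb, beside Pde4b at 5.76 ± 0.105 CPM per kb, and Akap6 was last at 0.603 ± 0.0412 CPM per kb. The neighbours Pde7b and Pde4b overlapped there (5.81 to 5.92 and 5.64 to 5.84 CPM per kb), as did Pde3b and Crem, and Pde4d and Pde4a. In IL-10-producing libraries no neighbours in the order overlapped. The spread between libraries does not cover the choice of length, so the order holds for all annotated exons only. Pde4b has 10560 exonic bases but a longest transcript of 4304, against 4045 and 3802 for Pde8a.

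The phosphodiesterase transcripts were summed per kilobase over the 14 measured genes that hydrolyse cyclic AMP and have an annotated length. The sum was 37.1, 37.8 and 37.8 CPM per kb in IL-10-producing libraries, against 45.6, 45.5 and 46.3 CPM per kb in IL-10-negative libraries, or 17.9% lower. This percentage depends on the length, and the same sum in CPM was 22.0% lower. Without Pde7b the sum per kilobase was 9.90% lower (36.0 ± 0.371 against 39.9 ± 0.493 CPM per kb). Pde7b made up 4.26 ± 0.0934% of the sum in IL-10-producing and 12.8 ± 0.239% in IL-10-negative libraries. Together with Pde7a the PDE7 share was 12.7 ± 0.232% against 23.6 ± 0.423%. Pde3b held 31.9 ± 0.790% against 29.4 ± 1.02%, Pde8a 23.8 ± 0.466% against 20.2 ± 1.19% and Pde4b 15.1 ± 0.326% against 12.6 ± 0.349%. These are shares of a sum that itself differed, and the summed level of the PDE4 genes was 9.24 ± 0.165 against 8.89 ± 0.105 CPM per kb.

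The shares depended on the length used. With the longest annotated transcript in place of all exons, Pde4b stood at 23.8% of the sum in IL-10-producing and 19.3% in IL-10-negative libraries and passed Pde8a (16.2% and 13.4%), while Pde7b made up 6.35% and 18.5%. Pde4b and Pde4d, with 13 and 20 annotated transcripts, have long and short forms from different promoters, which gene totals do not separate.

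**Figure D3:**
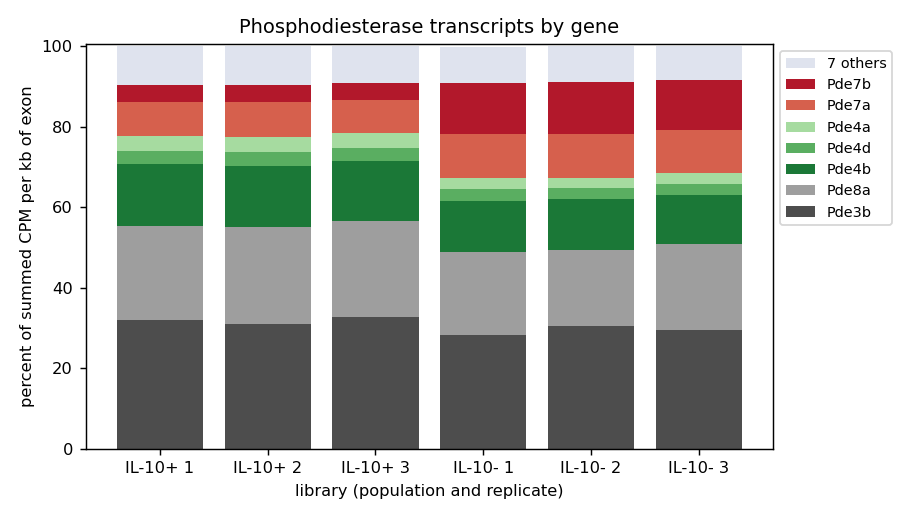
Share of each phosphodiesterase gene in the summed CPM per kb of exon (vertical axis, percent) in each library, IL-10-producing (IL-10+) on the left and IL-10-negative (IL-10-) on the right. The 2 red segments are the PDE7 genes, which hold 12.7% of the bar in IL-10-producing and 23.6% in IL-10-negative libraries on average.

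Promoter windows from RefSeq (GRCm38.p6, 250 bases before to 50 after an annotated start) were held for 7 of the 10 genes, 12 windows in all. Pde3b, Pde7a and Crem had no window, so no promoter of theirs was searched. The 2 windows shown in full belong to the genes with the largest difference in each direction. That of Pde7b lies inside the gene, at a start 177 kb downstream of the first annotated base, on the minus strand of chr10:20548279-20548578, and that of Akap6 lies at the first base of the gene, on the plus strand of chr12:52699133-52699432.

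Pde7b: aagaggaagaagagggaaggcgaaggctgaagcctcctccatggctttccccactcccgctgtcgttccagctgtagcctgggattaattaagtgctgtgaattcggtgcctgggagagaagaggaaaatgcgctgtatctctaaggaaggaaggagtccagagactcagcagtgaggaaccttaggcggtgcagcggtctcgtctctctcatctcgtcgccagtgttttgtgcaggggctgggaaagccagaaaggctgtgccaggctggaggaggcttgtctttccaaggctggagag

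Akap6: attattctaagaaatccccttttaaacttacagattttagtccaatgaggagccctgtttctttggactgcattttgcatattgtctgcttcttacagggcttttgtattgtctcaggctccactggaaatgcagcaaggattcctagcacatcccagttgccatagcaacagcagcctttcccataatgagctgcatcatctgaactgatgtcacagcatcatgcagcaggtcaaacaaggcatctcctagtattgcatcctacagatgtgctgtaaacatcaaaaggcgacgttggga

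The windows were searched on both strands for the full cyclic AMP response element, TGACGTCA, and for its short core, TGACG, which every full element also holds. No window of the 7 genes held the full element, which 1.79% of all 32851 promoter windows held. The short core was in 3 of the 12 windows, against 20.8% of all windows, and in neither of those printed above. The 3 matches are shown in capitals with the bases around them, read along the plus strand, on which 2 of them appear as the reverse complement. That of Pde4b, in the window of a start 334 kb inside the gene, begins 34 bases before that start (chr4:102421504-102421543), that of Pde8a 84 bases before (chr7:81213164-81213203) and that of Pde4a, in the window of a start 18.4 kb inside the gene, 50 bases before (chr9:21184034-21184073).

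Pde4b: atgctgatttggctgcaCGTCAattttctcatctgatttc

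Pde8a: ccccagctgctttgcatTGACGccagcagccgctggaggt

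Pde4a: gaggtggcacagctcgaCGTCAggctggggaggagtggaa

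A match in letters is a description of the sequence, and no factor binding was measured here. Of the genes with the short core Pde4a was called higher and neither Pde4b nor Pde8a was called.

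Other genes at the same loci were read to see whether reads could be shared or whole neighbourhoods moved. Pde7a shared 48 exonic bases (0.620% of its exons) with the antisense gene Gm16093, and Crem shared 472 (8.01%) with Gm6225 on the other strand, which had 0.753 CPM in IL-10-producing libraries, against 0.975 CPM in IL-10-negative libraries. The sources used here do not give the strand setting of the counting, so those values are uncertain to that extent. No other of the 10 genes shared exonic bases with another gene. Within 1000 kb of Pde7b, 8 other genes had at least 5 CPM, of which 5 were called higher and 1 lower. Of all 10547 genes at that level 47.2% were called in either direction. The lower one was Ifngr1 (log2 fold change -0.82), a chain of the interferon gamma receptor. Mtfr2, the nearest of them, was higher with 39.0 ± 1.06 CPM against 28.7 ± 1.29 CPM in IL-10-negative libraries (adjusted p = 1.01e-08, edgeR). Pde7b was the lowest of its neighbourhood. It was chosen with its difference already known and had the 30th lowest log2 fold change of those 10547 genes, so this is a description only.

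Around Akap6 the nearest genes of at least 5 CPM on both sides were higher as well (edgeR, adjusted over all genes). Arhgap5 lay 127 kb away and had 120.5 ± 2.29 CPM in IL-10-producing against 61.4 ± 2.70 CPM in IL-10-negative libraries (log2 fold change 0.97, adjusted p = 3.20e-18). Egln3, an oxygen-sensing prolyl hydroxylase gene 1023 kb away on the other side, had 54.0 ± 1.80 against 27.6 ± 0.983 CPM (log2 fold change 0.97, adjusted p = 9.42e-16). Of the 5 other genes of at least 5 CPM within 1000 kb of Akap6, 2 were called higher and the other 3 were not called, a share near that of all genes at that level. Beside Pde7a, the nearest gene Mtfr1, 2.29 kb away, did not pass (log2 fold change 0.09, adjusted p = 0.0774). The lowest gene within 1000 kb of Pde7a was Cpa3 (log2 fold change -2.37), which is also a mast cell marker. The nearest genes were picked by position, and Ifngr1 and Cpa3 after their values were seen.

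**Figure D4:**
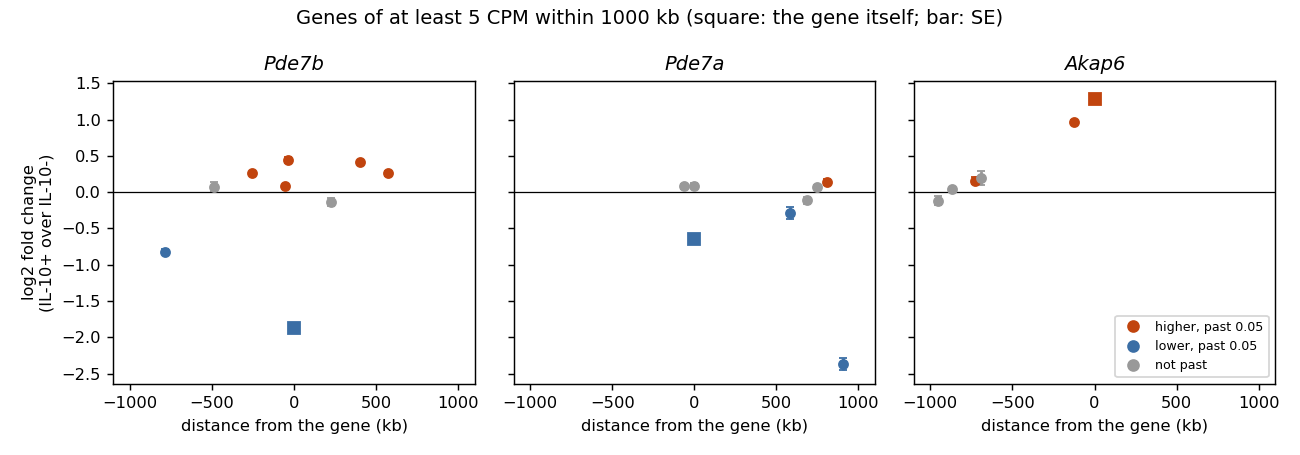
Log2 fold change (vertical axis, IL-10-producing over IL-10-negative; bars are SE) of genes with at least 5 CPM within 1000 kb of Pde7b, Pde7a and Akap6, against distance from the edge of that gene in kb. Squares mark the 3 genes themselves; Pde7b (-1.87) lies below all its neighbours, and Akap6 (1.28) has Arhgap5 (0.97) beside it.

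The rest of the pathway was read from 10 lists of genes by role, with 91 genes in all. The lists were made with earlier results of these data known, and most genes are named for the smallest p in their list. Their adjusted p-values are thus a description and no independent support. Of these, 76 had a row in the count table and 69 had enough counts to be tested. In the edgeR fit over all genes, 12 rose and 25 fell, against 17.1% higher and 18.6% lower over all genes tested. Of the genes with at least 5 CPM, 47.2% were called in either direction. The lists include genes named as cyclic GMP phosphodiesterases, of which 2 were tested and both fell. The split of 12 and 25 depended on the scaling, with 8 rising and 31 falling with library size only and 15 and 25 with DESeq2 size factors. Their median log2 fold change was -0.06, against -0.004 over all genes tested. The markers of T cells and of other blood cells given above were lower in the same IL-10-producing libraries, and their part in these counts was not tested.

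Receptors that raise cyclic AMP were the group with the most falls. Of 10 tested, 8 fell and 1 rose, with a median log2 fold change of -0.52. Ptger4 and Ptger2, receptors for prostaglandin E2, had 34.5, 35.3 and 36.2 CPM and 13.2, 13.4 and 13.3 CPM in IL-10-producing libraries, against 55.8, 60.2 and 55.9 CPM and 21.2, 20.1 and 20.5 CPM in IL-10-negative libraries (adjusted p = 2.40e-13 and 1.01e-09). Vipr2, a receptor for VIP, had 8.61 ± 0.256 CPM against 15.4 ± 0.922 CPM (log2 fold change -0.84, adjusted p = 3.11e-10). That the populations did not overlap was a condition for naming these 3 genes and is no result. Adora2b, an adenosine receptor, was the single member that rose, to 11.8 ± 0.530 CPM, against 9.60 ± 0.546 CPM in IL-10-negative libraries (adjusted p = 0.00132), and was picked out after its value was seen. The counts of 8 and 1 were obtained under each of the 14 alternative settings.

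Between receptor and PKA stand the G proteins and the adenylyl cyclases. Of 6 G protein alpha subunit genes, Gnai2 and Gnai3 rose by 0.06 and 0.07 on the log2 scale (adjusted p = 0.021 and 0.0136) and Gnal fell by 0.23 (adjusted p = 0.00763). Gnas, which encodes a stimulatory subunit, was named for its role after its values were seen. It stood at 948 ± 7.81 against 934 ± 8.43 CPM (adjusted p = 0.356). The Gnai2 and Gnai3 calls depended on the scaling and did not pass with library size only (0.267 and 0.183). Gnai2 was also lost without IL-10-producing replicate 1 (0.0656) or 2 (0.112) and without IL-10-negative replicate 2 (0.0776) or 3 (0.0551), Gnai3 without IL-10-negative replicate 1 (0.0959), and Gnal without IL-10-negative replicate 2 (0.0617). Of 6 tested adenylyl cyclase genes 0 were called in the edgeR fit, with 2 at an unadjusted p under 0.05, and 0 by DESeq2, limma-voom or limma on the deposited normalized values. With library size only, 2 were called lower. The most abundant, Adcy7, had 241 ± 3.94 CPM in IL-10-producing against 249.7 ± 6.23 CPM in IL-10-negative libraries (adjusted p = 0.0728, 0.00454 to 0.343 over the alternatives), and it was called lower with library size only (0.00454) and without IL-10-producing replicate 2 (0.0460) or IL-10-negative replicate 3 (0.0378).

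Among 8 tested PKA subunit and inhibitor genes, 2 rose and 1 fell. The regulatory subunits Prkar2a, with a mean of 98.9 against 85.7 CPM (log2 fold change 0.21, SE 0.0272), and Prkar2b, with 26.9 ± 1.93 against 21.2 ± 0.871 CPM, rose (adjusted p = 9.75e-07 and 1.61e-05). The catalytic subunit Prkacb fell to 133 ± 1.73 CPM, against 147 ± 2.67 CPM in IL-10-negative libraries (adjusted p = 1.40e-05). Type II regulatory subunits such as Prkar2a and Prkar2b are the ones that most anchoring proteins bind. Of the 2 EPAC genes Rapgef4 fell, but at 0, 1 and 0 counts in IL-10-producing libraries and under 1 CPM in the others. Rapgef3 did not pass, with 3.03 ± 0.257 CPM in IL-10-producing libraries against 2.34 ± 0.296 CPM (log2 fold change 0.37, adjusted p = 0.0520) and no overlap. Without IL-10-producing replicate 2 or IL-10-negative replicate 2, and under 3 other settings, 1 EPAC gene was called higher.

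Of 11 other anchoring protein genes tested, 1 rose and 3 fell. Akap12, the anchor gravin, rose to 15.3 ± 0.272 CPM, against 10.4 ± 0.434 CPM in IL-10-negative libraries (log2 fold change 0.56, adjusted p = 1.05e-07). Akap13 fell to 706 ± 7.39 CPM, against 764 ± 10.0 in IL-10-negative libraries, and Akap8l, a nuclear anchor, fell by 0.29 on the log2 scale (adjusted p = 9.74e-06 and 8.22e-06). Akap2, picked out after its value was seen, fell by 0.26 (adjusted p = 0.000535). The log2 fold change of Akap6, 1.28, lay above all 11, the highest of which was that of Akap12. Akap6 was chosen with its difference already known, so its place above them is a description only.

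Of the other phosphodiesterases that act on cyclic AMP, 7 were tested. Pde4c, the last PDE4 gene, rose to 5.05 ± 0.511 CPM, against 3.80 ± 0.128 CPM in IL-10-negative libraries (adjusted p = 0.00367). Pde2a fell (adjusted p = 1.16e-10), with 0.149, 0.117 and 0.192 CPM in IL-10-producing libraries, against 3.96, 2.35 and 1.86 CPM in IL-10-negative libraries, a level under 5 CPM that varied between the IL-10-negative libraries, and it was picked out after its values were seen. Of the genes listed by name with the cyclic GMP phosphodiesterases, 2 were tested, Pde5a and Pde6d. Whether their products hydrolyse cyclic GMP was not tested. Both fell in the fit of all libraries, but without IL-10-negative replicate 3 neither was called. The libraries of Pde6d overlapped between the populations. Pde5a fell by 0.25 on the log2 scale (adjusted p = 0.0153), a call lost without IL-10-producing replicate 3 (0.0525) or IL-10-negative replicate 3 (0.0904).

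Of the CREB relatives, coactivators and salt-inducible kinases (Sik1, Sik2 and Sik3), 6 of 9 fell and 2 rose. Most differences were small, that of Sik1 less so (log2 fold change -0.50). The list joins coactivators with kinases that hold them back, so these counts mix opposite roles. The coactivator Crtc3 had 97.3, 95.6 and 92.1 CPM in IL-10-producing against 108, 105 and 108 CPM in IL-10-negative libraries and Crebbp, the CREB-binding protein, 112 ± 2.04 against 124 ± 1.47 CPM (adjusted p = 2.61e-05 and 3.95e-05). Sik1, a kinase that holds CRTC coactivators in the cytoplasm and is itself a CREB target, fell to 16.7 ± 0.652 CPM, against 23.7 ± 1.02 CPM in IL-10-negative libraries (adjusted p = 3.88e-08). With library size only, 6 fell and no other passed. The number falling was 4 without IL-10-negative replicate 1 or 2 or IL-10-producing replicate 2, and 3 without IL-10-negative replicate 3. Of the 2 that rose, Atf1 and Sik3, at most 1 was called once any single library was left out.

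Textbook CREB targets went both ways, with 3 of 8 rising and 2 falling. Of those falling, Nr4a3 rested on 6, 9 and 6 counts in IL-10-producing libraries (0.124 ± 0.0107 against 0.435 ± 0.235 CPM). It was picked out after its values were seen. Egr1 and Fos rose to 92.0 ± 3.26 and 56.7 ± 2.31 CPM in IL-10-producing libraries, against 42.8 ± 0.802 and 31.5 ± 0.650 CPM in IL-10-negative libraries. Both stood out already in earlier results of these data and are no independent support for anything said here. Per1, a clock gene, fell to 15.5 ± 0.742 CPM, against 21.3 ± 1.48 CPM (log2 fold change -0.46, adjusted p = 7.66e-07). Most of these genes also answer to signals other than cyclic AMP.

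**Figure D5:**
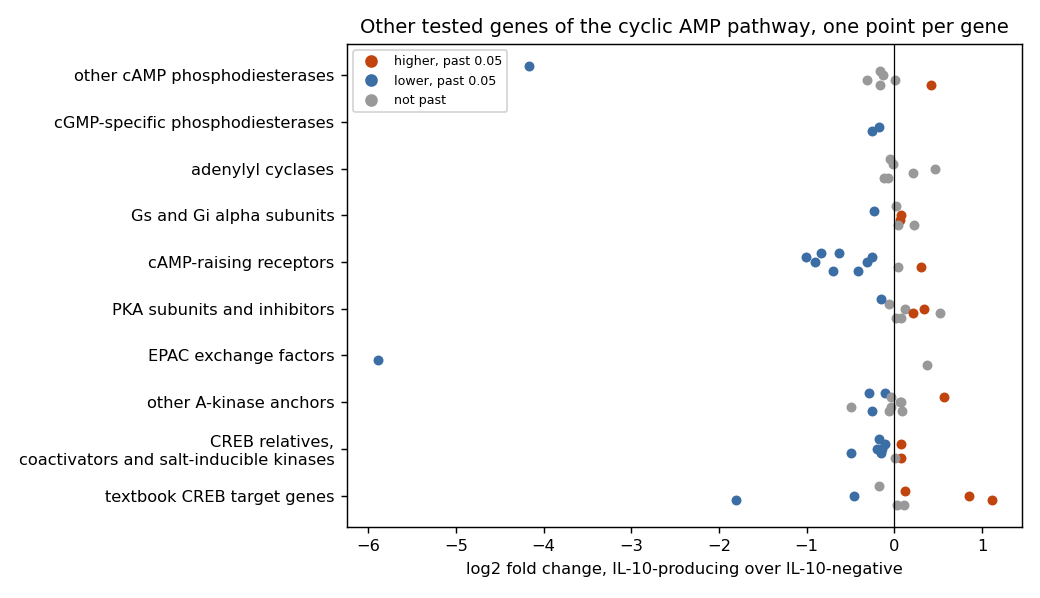
Log2 fold change (horizontal axis, IL-10-producing over IL-10-negative) of the 69 other tested genes of the pathway lists, cyclic GMP phosphodiesterases included. There is one point per gene in rows by role, with colour for the call at an adjusted p under 0.05. In the row of receptors that raise cyclic AMP 8 of 10 points are called lower; the points far to the left, Rapgef4 and Pde2a, are genes under 5 CPM.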

How the data were processed

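Total RNA of 6 sorted ILC2 libraries was sequenced from 10 ng of input. The build was mm10, per the submitters' processing notes, which also name Partek, STAR (version 2.5.3a) and bcl2fastq (version 2.17.1.14). The annotation release, the strand setting and the filters were not given in the sources used here. The authors deposited estimated counts per gene (50.2% of values not whole), and a normalized signal table for 13824 genes. The deposited signal values equalled the estimated count plus 1 times 1 factor per library within 1%, and they served as an alternative only.

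Estimated counts were rounded and tested with edgeR 4.0.16 in R 4.3.3 (quasi-likelihood F test, TMM factors, filterByExpr with minimum count 10 and minimum total 15, group as the only term). The threshold was an adjusted p of 0.05 after Benjamini-Hochberg adjustment over all 16654 genes. The fit was tested on simulated data. An SE is the absolute log2 fold change over the square root of F. The smallest count behind a value of the 10 genes was 453. No library was a copy of another (the median chi-square between libraries of a population was 2.39 to 2.96 times that of counting noise).

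Exon lengths came from GENCODE M21 by versioned gene ID, and gene ends are the listed stop minus 1. Pde10a (0.294 CPM in IL-10-producing libraries, against 0.320 CPM) had no length and was left out of the sums.

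The 10 genes, the pathway lists and the marker lists were chosen with earlier results of these data known. Named were the 10 genes, Il10, and from each pathway list the 3 smallest p among called genes with at least 5 CPM and no overlap (the most abundant where none was called), and the top 2 of each marker list by level. Of 5 B-cell markers 4 were lower, with Cd79b at 15.5 CPM in IL-10-producing libraries against 14.5 CPM and Cd79a at 0.469 against 0.938 CPM. Of 6 tested macrophage and dendritic cell markers 1 was higher (Cd68, 4.85 against 3.87 CPM, a call lost with DESeq2, without IL-10-producing replicate 1 or 2 and without IL-10-negative replicate 3) and 3 were lower, Csf1r (0.217 against 0.886 CPM) among them. Of 3 tested epithelial, endothelial and stromal markers Pecam1 was higher (106 against 86.6 CPM) and Epcam lower (14.9 against 19.3 CPM).

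The alternatives tried were library size only, DESeq2 size factors in edgeR, a filter of 50 counts in 3 libraries or none, limma-voom, DESeq2 1.42.0 and limma on log2 of the deposited normalized signal plus 1 (limma 3.58.1), the replicate number as a block, each library left out, and another exon length.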

Additional observations from a re-analysis of the deposited data

How the results depend on the processing

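Pde7b, Pde7a, Akap6 and Pde3b kept their call and direction under all 14 alternatives, with log2 fold changes from -1.90 to -1.80, -0.68 to -0.62, 1.16 to 1.32 and -0.20 to -0.15. Leaving out 1 library gave 1 to 2 of the 10 genes called higher; the 1 came without IL-10-negative replicate 2, when Pde4a was lost. Pde4b, Pde8a, Creb1, Crem and Pde4d were called under none. Among these uncalled genes the sign turned for Pde4d with library size only (-0.03) and without single libraries (-0.03 to 0.05 over the 6 left out in turn), and for Crem with library size only (-0.0048). The cause was not tested.

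Shares of the phosphodiesterase sum moved by more than the spread between libraries with the longest transcript as the length, which by its construction rescales each gene. In IL-10-producing libraries they were then 28.4% for Pde3b, 3.83% for Pde4a, 23.8% for Pde4b, 6.30% for Pde4d, 6.64% for Pde7a, 6.35% for Pde7b and 16.2% for Pde8a. In IL-10-negative libraries they were 25.4% for Pde3b, 19.3% for Pde4b, 5.01% for Pde4d, 8.30% for Pde7a, 18.5% for Pde7b and 13.4% for Pde8a.

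With the replicate number as a block (replicate block), 2778 genes were higher and 3039 lower, and the 10 genes gave 2 and 3. Libraries that share a number did not deviate together (correlations of -0.021, -0.0171 and -0.0401 over 10399 genes), so the numbers are not taken as pairs. Over 44 named genes, 588 of 614 values kept direction and call, 18 lost the call, 3 gained it and 5 changed sign.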
